A study of Mus musculus with 6 samples.

Results

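Dimethylation of lysine 79 of histone H3 (H3K79me2) was examined over 10 mouse genes: Ctcf, its paralog Ctcfl, and 8 genes of the cohesin complex, namely Rad21, Smc3, Smc1a, Stag1, Stag2, Nipbl, Pds5a and Pds5b. They were chosen by name among the 55450 genes of the GENCODE M21 annotation used here, on the genome build mm10 (GRCm38). The measured window was the gene body plus 3 kb upstream of the annotated start, and all 10 genes had such a window. The series held 4 H3K79me2 ChIP-seq libraries of Neuro-2a (N2a) cells, an established mouse neuroblastoma line. In 2 of them, CTR 1 and CTR 2, the cells had received pLKO.1-shCTR, a plasmid with a non-targeting hairpin. In the other 2, NPM1 KD 1 and NPM1 KD 2, they had received pLKO.1-shNpm1, with 1 hairpin against Npm1, which encodes the nucleolar protein nucleophosmin. Cells were collected on day 3, 72 h after transfection, and the protocol of the knockdown experiments had 9.3 µg/ml puromycin from 24 h on. The input of each group was pooled into 1 library, which was not used here. Each replicate was another passage of the same line, transfected in a batch of its own. The lists measure a histone mark and neither RNA nor protein, so the depletion of NPM1 was not checked here.

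H3K79me2 is written by the methyltransferase DOT1L and lies over the 5′ part of transcribed genes, from where it extends into the body. CTCF is a zinc finger protein that binds DNA at insulators and at the anchors of chromatin loops. Cohesin is a ring of SMC1A, SMC3 and RAD21, joined by STAG1 or STAG2. It is loaded on DNA with the help of NIPBL and is regulated by PDS5A and PDS5B. The ring holds sister chromatids together and forms loops that stop at bound CTCF. CTCFL, also called BORIS, is normally limited to the male germ line.

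The narrow lists held 73801 to 88348 peaks and the broad lists 34845 to 48764 per library, and broad peaks covered 223 to 253 Mb. The background pileup that the narrow lists imply, which scales with depth, was 11.9 and 7.65 in CTR 1 and CTR 2, and 8.99 and 11.8 in NPM1 KD 1 and NPM1 KD 2. CTR 2 had the fewest peaks and the lowest background. Of 12 markers of neuroblastoma cells and neurons, 10 carried a broad peak in all 4 libraries, among them Phox2a and Hand2, whereas Dbh and Nefl carried none. Of 15 markers of glia, blood, endothelium, fibroblasts and liver, 14 carried none in any library and Pecam1 was covered over at most 0.247% of its window. A peak list averages over many cells, so a mark in fewer cells and less mark per cell cannot be told apart.

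Promoters are shown first because the marked domains below are measured from them. The RefSeq promoter table, on GRCm38.p6, held 6 of the 10 genes: Ctcf, Smc3, Smc1a, Stag1, Pds5a and Pds5b. Each entry runs from 250 bases before to 50 bases after the start. 4 are printed 5′ to 3′, with every CG, which reads the same on both strands, in capitals: Ctcf and Smc1a, whose starts lay under no narrow peak in any library, Smc3, whose start lay under one in all 4, and Stag1, whose RefSeq start differs from the annotated one.
Ctcf, chr8:105636288-105636587, plus strand: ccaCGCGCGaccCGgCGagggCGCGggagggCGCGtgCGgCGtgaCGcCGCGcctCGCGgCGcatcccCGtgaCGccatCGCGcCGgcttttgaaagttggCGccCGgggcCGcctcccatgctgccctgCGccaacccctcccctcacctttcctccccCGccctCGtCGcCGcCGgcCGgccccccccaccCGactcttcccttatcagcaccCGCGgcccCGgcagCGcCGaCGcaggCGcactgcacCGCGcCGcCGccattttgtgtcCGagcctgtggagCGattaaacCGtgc
Smc1a, chrX:152016178-152016477, plus strand: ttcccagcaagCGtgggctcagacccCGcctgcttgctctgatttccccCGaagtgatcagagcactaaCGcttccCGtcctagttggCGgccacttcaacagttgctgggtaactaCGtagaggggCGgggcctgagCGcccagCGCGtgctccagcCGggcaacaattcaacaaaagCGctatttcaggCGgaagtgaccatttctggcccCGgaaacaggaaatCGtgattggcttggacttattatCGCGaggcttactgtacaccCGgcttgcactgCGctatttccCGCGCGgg
Smc3, chr19:53600146-53600445, plus strand: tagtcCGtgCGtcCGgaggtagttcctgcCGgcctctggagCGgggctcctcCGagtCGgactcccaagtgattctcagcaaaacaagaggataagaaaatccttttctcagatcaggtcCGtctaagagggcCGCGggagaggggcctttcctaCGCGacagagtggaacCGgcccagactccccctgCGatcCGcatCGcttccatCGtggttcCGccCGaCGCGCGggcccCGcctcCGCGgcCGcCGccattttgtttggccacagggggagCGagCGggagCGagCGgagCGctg
Stag1, chr9:100643198-100643497, plus strand: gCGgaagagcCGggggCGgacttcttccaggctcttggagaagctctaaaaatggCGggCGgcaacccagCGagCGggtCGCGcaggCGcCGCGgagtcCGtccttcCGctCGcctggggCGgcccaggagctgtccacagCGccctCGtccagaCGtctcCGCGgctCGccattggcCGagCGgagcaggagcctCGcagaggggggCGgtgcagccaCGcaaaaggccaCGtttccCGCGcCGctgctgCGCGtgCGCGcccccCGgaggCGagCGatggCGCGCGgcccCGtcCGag

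All 6 promoters held more CG than the median promoter. The Ctcf promoter held 47 CG, a number that 1.44% of the 32851 promoters of the same length reached or passed. Stag1 held 43 and Smc3 held 32, whereas Smc1a held 23, which 21.5% of all promoters reached or passed. Pds5a held 55 and Pds5b 41, and the median over all promoters was 7.

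Of the 10 genes, 9 carried H3K79me2 peaks in all 4 libraries and in both kinds of list. Ctcfl (chromosome 2, 173093609 to 173119525, minus strand) carried no peak in any library, neither in the broad nor in the narrow lists. Its covered share was thus 0% in CTR 1, CTR 2, NPM1 KD 1 and NPM1 KD 2. The nearest narrow peak lay 85307 to 86233 bp downstream of its start, so no mark was called in the window at the depth of any library. The antisense gene Ctcflos overlaps part of it. The lists hold called peaks only, and signal below the calling threshold was not seen. Of the 4 meiotic cohesin genes, Smc1b, Rad21l and Stag3 were also without a peak in all 4 libraries. Rec8 was covered over 13.6% and 12.8% of its window in CTR and over 25.7% and 18.3% in NPM1 KD.

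Ctcf (ENSMUSG00000005698.15) lies on chromosome 8 from 105636568 to 105682922, on the plus strand. Broad peaks covered 87.2% and 82.6% of its window in CTR 1 and CTR 2, and 90.3% and 90.3% in NPM1 KD 1 and NPM1 KD 2. Both NPM1 KD libraries were above both CTR libraries, and CTR 2 was the lowest. The CTR mean was 84.9% ± 3.26 (SD, n = 2), the NPM1 KD mean was 90.3% ± 0.0516 (SD, n = 2), and they differed by 5.45 percentage points (two-sided exact permutation test, p = 0.333). With 2 libraries against 2 this is the smallest p that the test can give, so no difference of this kind could pass a threshold of 0.05. In the narrow lists the order was the same, with 77.9% and 75.8% in CTR against 82.0% and 80.3% in NPM1 KD.

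The mark over Ctcf was not even along the gene, whose body was cut into 5 equal segments, numbered from the 5′ end. Segments 1, 2 and 3 were covered to at least 96.1% by broad peaks in every library. The difference lay in segments 4 and 5, towards the 3′ end. Segment 4 was covered to 84.0% in CTR 1 and 89.8% in CTR 2, and to 100% in both NPM1 KD libraries. Segment 5 was covered to 47.7% and 17.4% in CTR 1 and CTR 2, and 48.6% and 55.3% in NPM1 KD 1 and NPM1 KD 2, so CTR 1 and NPM1 KD 1 were close to each other there.

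The main broad peak of Ctcf ended 33179 and 34089 bp after the start in CTR 1 and CTR 2, against 38324 and 40179 bp in NPM1 KD 1 and NPM1 KD 2. When peaks were joined across gaps of up to 1 kb, the domain ended at 41754, 38698, 41762 and 43747 bp in the same order. The first 2 of these are CTR, so CTR 1 and NPM1 KD 1 then differed by only a few bases. The joined domain began 31548 and 11109 bp before the start in CTR 1 and CTR 2, and 31500 and 13878 bp before it in NPM1 KD 1 and NPM1 KD 2. Its upstream end thus overlapped between the groups. Before joining, the main peak began 361 bp after the start in NPM1 KD 2 and before the start in the other libraries. On average the joined domain ran to 40226 ± 2161 bp (SD, n = 2) for CTR and to 42754 ± 1404 bp (SD, n = 2) for NPM1 KD (two-sided exact permutation test, p = 0.333). The broad lists of CTR had gaps between the main peak and the next one there, and the main broad peaks of NPM1 KD ran across that stretch.

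The amplicon that the study used for Ctcf in ChIP-qPCR lies at this far edge of the domain. It is shown because in the broad lists it marks where the mark was called separately in CTR and within the main peak in NPM1 KD. In the narrow lists a peak apart from the main one lay over it in all 4 libraries. Both primers matched chromosome 8 of GRCm38 at 1 place each. In the amplicon the capitals mark the forward primer at the left and the complement of the reverse primer at the right.
Ctcf ChIP-qPCR amplicon, chr8:105672666-105672770, plus strand: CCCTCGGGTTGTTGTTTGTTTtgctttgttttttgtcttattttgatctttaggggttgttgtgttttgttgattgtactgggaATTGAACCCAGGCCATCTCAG

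The amplicon is 105 bp long, lies in an intron of Ctcf 36098 bp after the start, and is 10152 bp from the end of the gene. It was fully covered by a broad peak in all 4 libraries. In CTR 1 that peak ran from 35333 to 40377 bp after the start with a fold of 2.13, and in CTR 2 from 35040 to 38698 bp with a fold of 2.38. In NPM1 KD 1 the amplicon lay in the main peak, whose mean fold was 7.87, and in NPM1 KD 2 likewise, with 9.82. The broad fold is a mean over the whole peak, so these values belong to peaks of very different length and do not compare the amplicon itself. The narrow peaks over it had summit folds of 2.87 and 3.24 in CTR 1 and CTR 2, and 3.50 and 2.90 in NPM1 KD 1 and NPM1 KD 2, and the groups overlapped. The paper itself reported significantly more H3K79me2 at Ctcf in ChIP-qPCR after NPM1 KD. Its own test on reads also listed Ctcf among the genes with increased mark. Neither measure was repeated here.

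Around the start of Ctcf the narrow lists had a gap. The annotated start itself lay under no narrow peak in any library. The nearest peak on the upstream side ended 186 and 208 bp before it in CTR 1 and CTR 2, and 209 and 306 bp before it in NPM1 KD 1 and NPM1 KD 2. The nearest peak in the gene began 307, 391, 229 and 369 bp after the start in the same order. The upstream side belongs to other annotated genes as well, since Agrp, which encodes an appetite-regulating neuropeptide, and the gene models Gm5914 and Gm38384 overlap the 3 kb before Ctcf. Agrp and Gm5914, on the minus strand, also cross the start and reach into the Ctcf body, to positions 105637393 and 105637485. The pseudogene Gm5915 lies inside the body. Over the bases of the window that no other gene body overlaps, the difference in covered share was 6.71 percentage points, against 5.45 over the whole window.

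The strongest narrow peak of Ctcf had a summit fold over background of 34.1 (95% counting interval 31.0 to 37.4) and 34.6 (30.8 to 38.7) in CTR 1 and CTR 2. It was 28.6 (25.4 to 32.2) and 32.0 (29.0 to 35.3) in NPM1 KD 1 and NPM1 KD 2. These rest on summit pileups of 438, 298, 285 and 408 fragments. Both NPM1 KD values were below both CTR values, while the counting intervals of all 4 overlapped. The summit lay in an intron, 1973 to 2750 bp after the start. Within its own list the peak stood at percentile 99.0 and 99.1 in CTR 1 and CTR 2, and 98.6 and 99.7 in NPM1 KD 1 and NPM1 KD 2, so by rank the groups overlapped.

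The protein-coding genes of similar window length whose covered shares were nearest to Ctcf over 8 values, 4 libraries in both kinds of list, were Rab22a, Klc1 and Agpat5. They were taken from 1023 candidates, with distances of 6.47, 6.63 and 6.72 percentage points. In Rab22a broad peaks covered 85.4%, 79.6%, 89.8% and 86.6% of the window in CTR 1, CTR 2, NPM1 KD 1 and NPM1 KD 2. Klc1 and Agpat5 had CTR 2 as the lowest library as well. The shares in CTR 2 were among the values used to choose these genes, so this likeness is partly built in.

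**Figure D1:**
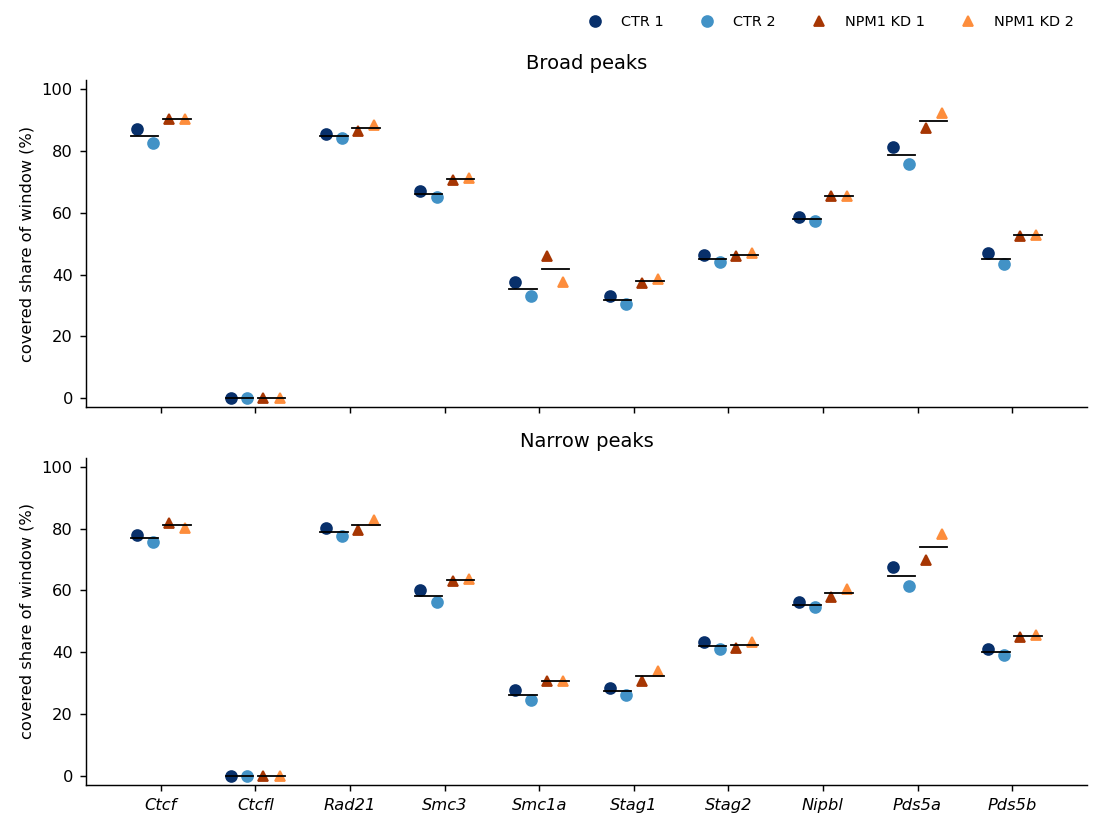
Share of the gene body plus 3 kb upstream that lay under H3K79me2 peaks (y axis, %) for the 10 genes (x axis), in broad lists above and narrow lists below. Circles are CTR and triangles NPM1 KD libraries, and black lines are group means of 2 libraries. Ctcfl sits at 0, and in the broad lists both triangles are above both circles for 8 genes, with overlap for Stag2.

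The ring subunits differed widely in how much of each gene was marked. Rad21 (chromosome 15, 51962240 to 51991747, minus strand), which encodes the cleavable subunit that closes the ring, was covered over 85.5% and 84.3% in CTR 1 and CTR 2, and 86.5% and 88.3% in NPM1 KD 1 and NPM1 KD 2. The difference was 2.50 percentage points. In the narrow lists the groups overlapped, with 80.1% and 77.8% in CTR against 79.7% and 82.9% in NPM1 KD.

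By narrow summit fold, Rad21 was the highest of the 10 genes in CTR 1, Smc3 in CTR 2 and NPM1 KD 1, and Ctcf in NPM1 KD 2. In each library the counting intervals of the highest and the next gene overlapped. By broad fold, Rad21 was the highest in CTR 1, CTR 2 and NPM1 KD 1, and Pds5a in NPM1 KD 2. The strongest narrow peak of Rad21 reached a fold of 50.5 (46.7 to 54.6) and 40.7 (36.6 to 45.2) in CTR 1 and CTR 2. In NPM1 KD 1 and NPM1 KD 2 it reached 40.7 (36.8 to 44.8) and 30.9 (27.9 to 34.1). CTR 2 and NPM1 KD 1 were alike, and the spread within each group was about as large as the gap between the means. In 3 libraries the summit lay 589 to 620 bp after the start, whereas in NPM1 KD 2 it lay 8570 bp after it. The percentiles were 99.8, 99.6, 99.7 and 99.6, so the rank of the peak overlapped between the groups. No other annotated gene overlaps the window of Rad21.

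Smc3 (chromosome 19, 53600398 to 53645833, plus strand), an ATPase arm of the ring, was covered over 67.2% and 65.2% in CTR 1 and CTR 2, and 70.7% and 71.2% in NPM1 KD 1 and NPM1 KD 2. Both NPM1 KD libraries were higher, by 4.73 percentage points in the means. Segments 1 and 2 of its body were fully covered in all 4 libraries. Segment 4 was covered to 49.2% and 53.9% in CTR, and to 61.6% and 67.6% in NPM1 KD.

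The end of the marked domain of Smc3 depended on how peaks were joined. The unjoined broad peak ended 27136 and 21586 bp after the start in CTR 1 and CTR 2, and 30789 and 32707 bp after it in NPM1 KD 1 and NPM1 KD 2. After joining across gaps of up to 1 kb the ends were 34400, 31397, 30789 and 34615 bp, and the groups overlapped. Its strongest narrow fold was 46.3, 44.3, 42.5 and 27.3 in CTR 1, CTR 2, NPM1 KD 1 and NPM1 KD 2, so NPM1 KD 2 stood apart and NPM1 KD 1 was close to both CTR libraries. Each of these summits lay 581 to 822 bp after the start.

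Smc1a (chromosome X, 152016428 to 152062694, plus strand), the other ATPase arm, was covered over less of its window than Rad21 or Smc3. The share was 37.6% and 32.9% in CTR 1 and CTR 2, and 46.1% and 37.7% in NPM1 KD 1 and NPM1 KD 2. NPM1 KD 2 and CTR 1 were almost equal, and the difference of 6.61 percentage points ranged from 2.45 without NPM1 KD 1 to 10.8 without NPM1 KD 2. The domain at the start was short and ended 10462, 11260, 11456 and 11573 bp into the gene. Ribc1, on the opposite strand, overlaps the 3 kb upstream, and the start itself lay in a gap of the narrow lists in all 4 libraries.

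The genes of the alternative STAG subunits were marked in different ways. Stag1 (chromosome 9, 100597798 to 100959375, plus strand) is the longest of the 10 and was covered over 33.1% and 30.4% in CTR 1 and CTR 2, and 37.2% and 38.6% in NPM1 KD 1 and NPM1 KD 2. No domain lay within 3 kb of its annotated start. The nearest narrow peak on the upstream side ended 26565 to 26810 bp before that start, and the nearest on the downstream side began 42618 to 43258 bp after it. The RefSeq start lies 45650 bp inside the annotated body, at the promoter printed above. Measured from there, the joined broad domain began 161 and 663 bp after the start in CTR 1 and CTR 2, and 243 and 662 bp after it in NPM1 KD 1 and NPM1 KD 2. It ended 107521, 97437, 107614 and 107340 bp after that start, so only CTR 2 stood apart.

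Segment 3 of Stag1 separated the groups. It was covered to 29.0% and 20.2% in CTR 1 and CTR 2, and 42.9% and 51.2% in NPM1 KD 1 and NPM1 KD 2. Segment 5 was covered to 0.241% in NPM1 KD 1 and to 0% in the other libraries. The strongest fold was 14.4, 17.7, 18.7 and 15.6 and overlapped, whereas its percentile was 94.0 and 95.0 in CTR against 96.2 and 95.7 in NPM1 KD.

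Stag2 (chromosome X, 42149317 to 42277185, plus strand) was the marked gene in which the groups overlapped in both kinds of list. Broad peaks covered 46.3% and 44.0% in CTR 1 and CTR 2, and 45.9% and 47.1% in NPM1 KD 1 and NPM1 KD 2, a difference of 1.36 percentage points (two-sided exact permutation test, p = 0.667). The domain began 83 to 175 bp after the start. It ended at 56035, 55908, 55940 and 56047 bp, a spread of less than 200 bp over the 4 libraries. Stag2 also had the lowest strongest fold of the 9 marked genes, 9.93 and 12.1 in CTR 1 and CTR 2, and 9.11 and 9.94 in NPM1 KD 1 and NPM1 KD 2. Gm37564, on the opposite strand, overlaps its start.

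Nipbl (chromosome 15, 8290617 to 8444463, minus strand), the cohesin loader, was covered over 58.7% and 57.3% in CTR 1 and CTR 2, and 65.4% and 65.5% in NPM1 KD 1 and NPM1 KD 2. The libraries of each group lay close together and the groups were 7.46 percentage points apart. Segment 3 of the body was covered to 66.3% and 63.6% in CTR, and to 86.3% and 84.9% in NPM1 KD. Segment 4 was covered to 22.7% and 18.0% in CTR, and to 34.5% and 35.8% in NPM1 KD.

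The joined domain of Nipbl reached further in NPM1 KD at both ends. It began 9633 and 8063 bp before the start in CTR 1 and CTR 2, and 10608 and 10515 bp before it in NPM1 KD 1 and NPM1 KD 2. It ended 75942, 73039, 77337 and 78649 bp after it. The share of all genes whose domain ends separate the groups was not counted, so how common this is was not seen. The same holds for the domain ends of Ctcf, Smc1a and Pds5b. Nipbl was also the only one of the 9 genes whose strongest narrow fold was higher in both NPM1 KD libraries, with 27.0 and 28.7 against 25.1 and 26.6, although the counting intervals of all 4 overlapped. Over all 17231 genes with a narrow peak in every library, 10% were higher and 28.9% lower in this sense, and Ctcf, Rad21, Smc3 and Smc1a were among the lower ones. No other annotated gene overlaps its window.

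Pds5a (chromosome 5, 65605721 to 65698273, minus strand) had the largest difference in covered share of the 10. Its PDS5 protein, like that of Pds5b, binds the ring and helps both to stabilise and to release it. The share was 81.2% and 76.0% in CTR 1 and CTR 2, and 87.6% and 92.2% in NPM1 KD 1 and NPM1 KD 2, a difference of 11.3 percentage points. Segment 4 of the body was covered to 61.1% and 44.6% in CTR, and to 83.2% and 84.6% in NPM1 KD. The main domain ended 42066, 42547, 42037 and 41995 bp after the start before joining, so its own edge was slightly nearer the start in NPM1 KD. The added coverage lay in weaker peaks beyond it, and with joining across gaps of up to 1 kb NPM1 KD 2 alone ran on to 89347 bp.

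Pds5b (chromosome 5, 150673739 to 150810690, plus strand) was covered over 46.9% and 43.5% in CTR 1 and CTR 2, and 52.4% and 53.0% in NPM1 KD 1 and NPM1 KD 2, a difference of 7.48 percentage points. Its domain ended 52670, 51742, 52914 and 52743 bp after the start, and the groups were separated by less than 100 bp. Segment 3 of the body was covered to 21.3% and 12.9% in CTR, and to 37.0% and 41.2% in NPM1 KD. The strongest narrow fold was 28.9, 26.6, 28.8 and 21.9 in CTR 1, CTR 2, NPM1 KD 1 and NPM1 KD 2, and overlapped.

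**Figure D2:**
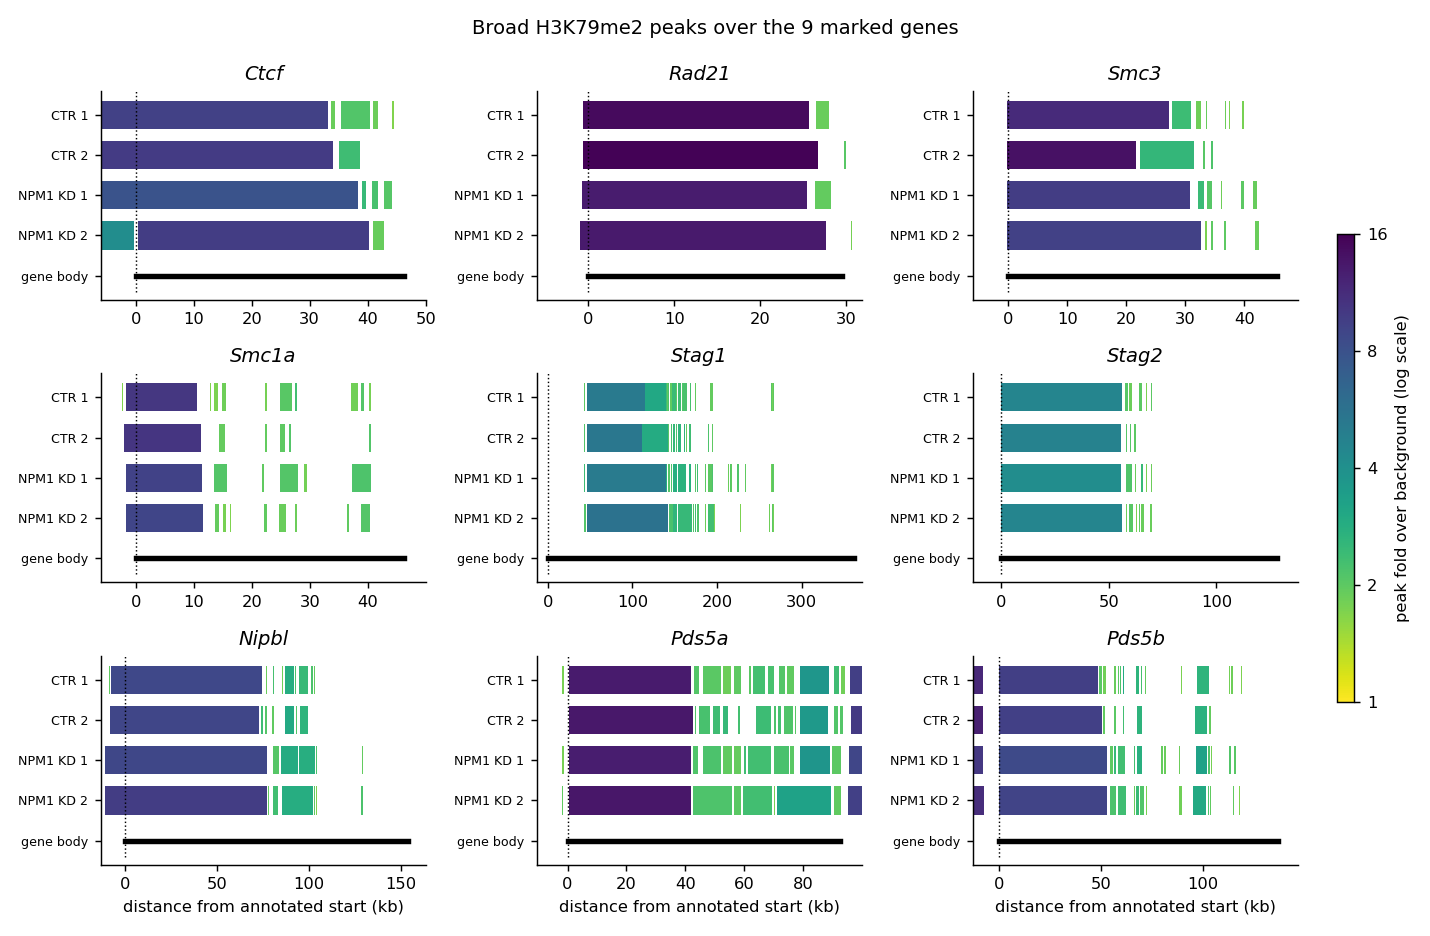
Broad H3K79me2 peaks of each library drawn against the distance from the annotated start (x axis, kb) for the 9 marked genes, with the gene body as a black bar and peak fold as colour on a log scale. Peaks that pass the edge of a panel continue beyond it. The main domains begin near or reach across the dotted start in all genes but Stag1, and the weaker peaks of Pds5a beyond its main domain cover more of the gene in NPM1 KD.

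Set side by side, covered share per window length ordered the genes with Rad21, Ctcf and Pds5a at the top, where the ranges of their libraries overlapped. Smc3 and Nipbl followed, and the lowest library of Smc3 lay just below the highest of Nipbl. Stag2, Pds5b and Smc1a overlapped each other as well. Stag1 was the lowest of the marked genes on average, with a range that overlapped that of Smc1a. Its place rests on the window from the annotated start, which takes in the 45650 bp before the RefSeq start. Shares were not measured from the RefSeq start.

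The other genes that overlap the windows were AC137853.1 upstream of Smc3 and Gm15267 in Smc1a. Stag1 held Gm47803, Gm8661, Gm37204, Gm38297 and Gm3081, Pds5a held Gm42727, Gm42729, Gm24399, Gm42728 and C030017G13Rik, and Pds5b held Gm24630, Gm26013 and Gm43807. The summit of the strongest narrow peak lay in an intron in each of the 9 genes and all 4 libraries.

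The annotated start was bare in the narrow lists of all 4 libraries in 4 of the 8 genes that had a narrow peak within 3 kb of it, namely Ctcf, Smc1a, Stag2 and Pds5a. It was covered in all 4 in Rad21, Smc3 and Nipbl, and in 2 libraries in Pds5b. Among 4232 protein-coding genes with such a peak and a comparable window length, 42.7% had a bare start in all 4 libraries.

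In the broad lists, 8 of the 9 marked genes had both NPM1 KD libraries above both CTR libraries in covered length, Stag2 being the exception, and none had both below. Over all 18781 genes covered in at least 1 library, 38.7% were above in this sense and 3.14% below. The background was higher among genes like these. Of 4841 protein-coding genes marked in all 4 libraries with a window of at least 32508 bp, that of Rad21, 59.4% were above and 2.52% below. In the narrow lists 7 of the 9 were above, Rad21 and Stag2 being the exceptions, and none below, against 35.9% above and 4.44% below over all 19028 genes covered there. The direction was therefore the common one among long marked genes, and nothing particular to these genes can be read from it.

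Depth differed between the libraries of each group, and its part in covered length was not tested. Covered length was also compared between the CTR and NPM1 KD libraries nearest in background, pairs chosen after the values were seen. CTR 1 and NPM1 KD 2 had nearly the same background pileup, 11.9 and 11.8, and there all 9 marked genes were covered further in NPM1 KD 2, against 49.3% of all genes. Between CTR 2 and NPM1 KD 1, with 7.65 and 8.99, all 9 were again further covered in NPM1 KD 1, against 76.1% of all genes. For Smc1a and Stag2 the first of these gaps was under 1 percentage point. The shares of long marked genes were not counted for these pairs. With all 4 libraries 59.4% of long marked genes were above, against 38.7% of all genes, but that criterion differs from the one of the pairs. Without the matching share, no excess of the 9 over long marked genes can be read from the pairs.

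The position of the added coverage was counted by segment of the body. Both NPM1 KD libraries were above both CTR libraries in 0 of 9 genes in segment 1, 3 in segment 2, 5 in segment 3, 7 in segment 4 and 5 in segment 5. Over the 4841 long marked genes the shares were 24.1%, 27.3%, 29.5%, 26.4% and 21.8% from segment 1 to segment 5. A segment that is fully covered in every library cannot be above, and segment 1 was covered to at least 96.1% in 8 of the 9 genes. A segment that is bare in every library cannot be above either. Over the long marked genes the median coverage of segment 5 was 0% in CTR 1, CTR 2 and NPM1 KD 2. In segment 4 it was 6.92%, 2.89%, 11.6% and 8.67% in CTR 1, CTR 2, NPM1 KD 1 and NPM1 KD 2. The counts and shares of late segments are thus not like for like.

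**Figure D3:**
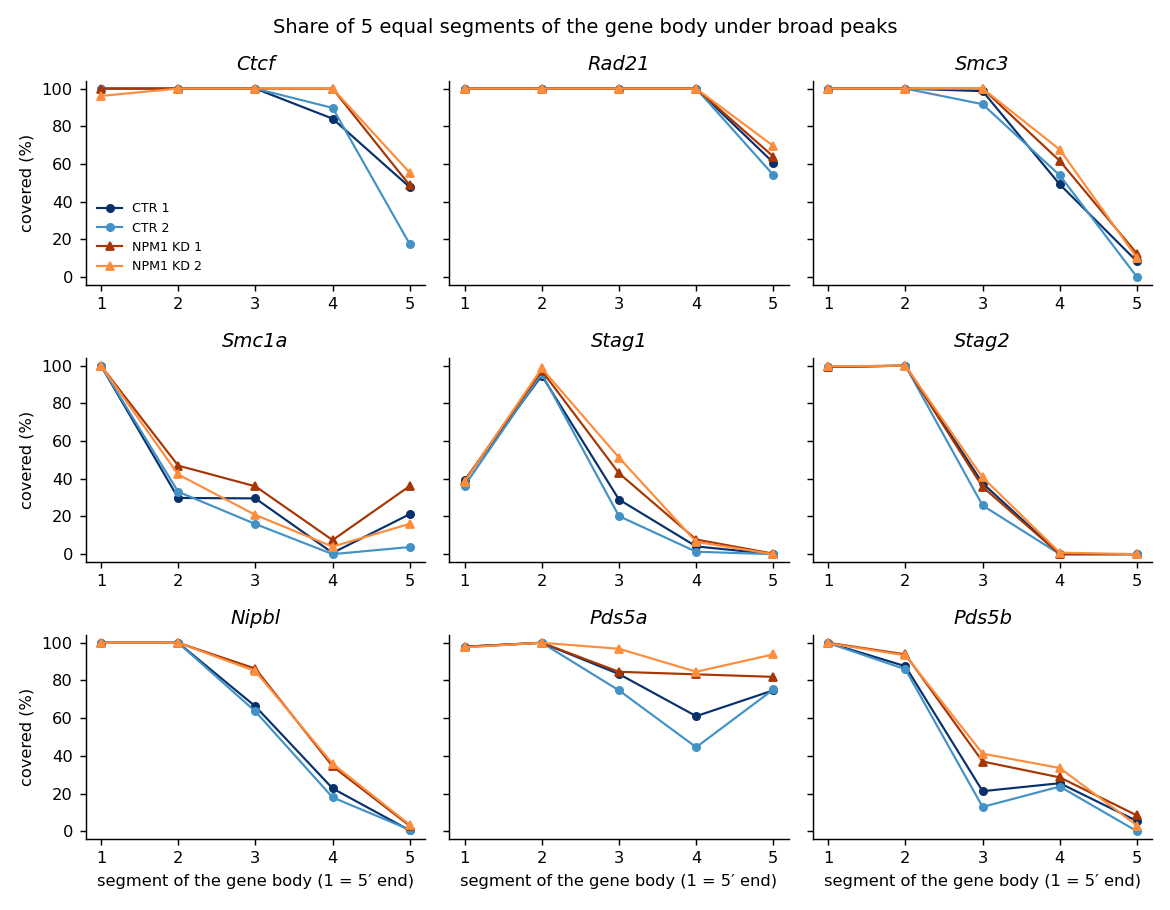
Share of 5 equal segments of the gene body under broad peaks (y axis, %) from the 5′ end (1) to the 3′ end (5) for the 9 marked genes, with 1 line per library. The lines run together near 100% at the 5′ end, except in Stag1, and separate in later segments, as in segment 3 of Nipbl with 66.3% and 63.6% in CTR against 86.3% and 84.9% in NPM1 KD.

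Mean fold is not independent of covered length, since added bases of weaker fold lower it. The mean fold of the broad peaks, weighted by the bases they cover, was lower in both NPM1 KD libraries than in both CTR libraries in 6 of the 9 genes, namely Rad21, Smc3, Smc1a, Stag2, Pds5a and Pds5b. It was higher in Stag1 alone. In Rad21 it was 14.2 and 15.7 in CTR 1 and CTR 2, and 12.2 and 13.3 in NPM1 KD 1 and NPM1 KD 2. Over all 17091 genes with a broad peak in every library, 39.6% were below and 9.31% above in this sense, so a lower mean fold was common.

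By rank within the own list, the strongest narrow peak was higher in both NPM1 KD libraries in 3 of the 9 genes, Stag1, Nipbl and Pds5a, and lower in none. Over all 17231 genes with a narrow peak in every library the shares were 34.1% and 5.83%. For Nipbl the percentiles were 97.6 and 97.8 in CTR 1 and CTR 2, and 98.3 and 99.4 in NPM1 KD 1 and NPM1 KD 2. In Ctcf, Rad21, Smc3, Smc1a, Stag2 and Pds5b the groups overlapped.

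**Figure D4:**
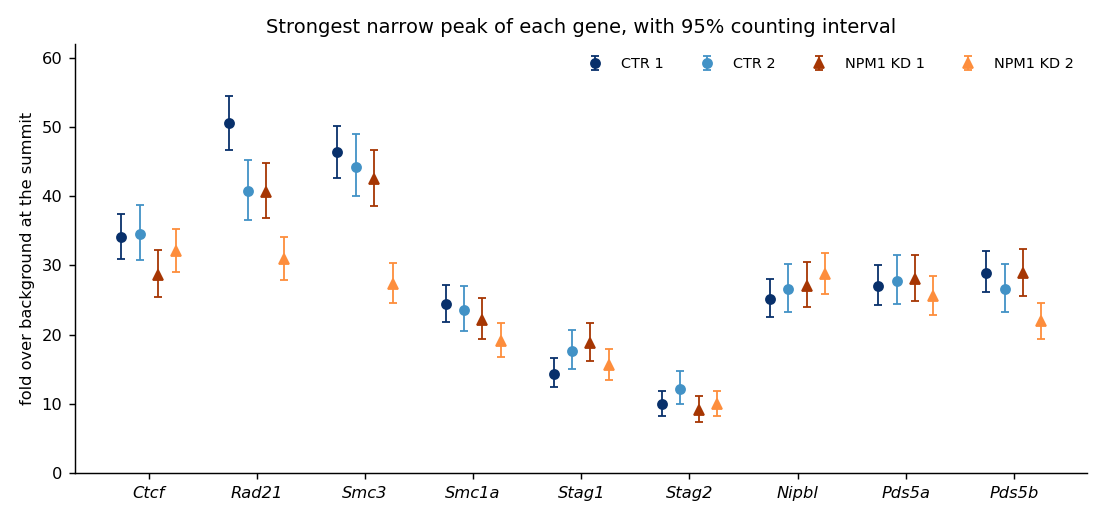
Fold over background at the summit of the strongest narrow peak (y axis) of the 9 marked genes (x axis) in each library. Bars are 95% Poisson intervals of the summit pileup and cover counting error only. Rad21 reaches 50.5 in CTR 1 and Stag2 stays between 9.11 and 12.1.

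Covered length was tested with limma on log2(covered bp + 1000) over all 18781 genes with Benjamini-Hochberg adjustment. At an adjusted p under 0.05 it called 5 genes, 0.0266% of those tested, all with the higher value in NPM1 KD, and none of them was among the 9 marked genes. With the replicate number as a block it called 0. At an unadjusted p under 0.05 there were 2352 genes with the higher and 124 with the lower value in NPM1 KD. Nipbl had the smallest p of the 9, with a log2 difference of 0.17 ± 0.02 (SE) and an adjusted p of 0.205, higher in 2 of 2 NPM1 KD libraries. Over the main setting and 11 others its adjusted p ranged from 0.095 to 0.544. The log2 difference was 0.09 ± 0.03 (SE) in Ctcf (adjusted p = 0.472) and 0.25 ± 0.06 in Stag1 (adjusted p = 0.341).

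The median log2 difference was 0.17 over the 9 genes, 0.06 over all genes tested and 0.10 over the 4841 long marked genes. Rad21 and Stag2, both at 0.04, were below the median of all genes, and the other 7 were above it. Differences in covered length understate those of short covered stretches, since 1000 bp were added to each value.

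**Figure D5:**
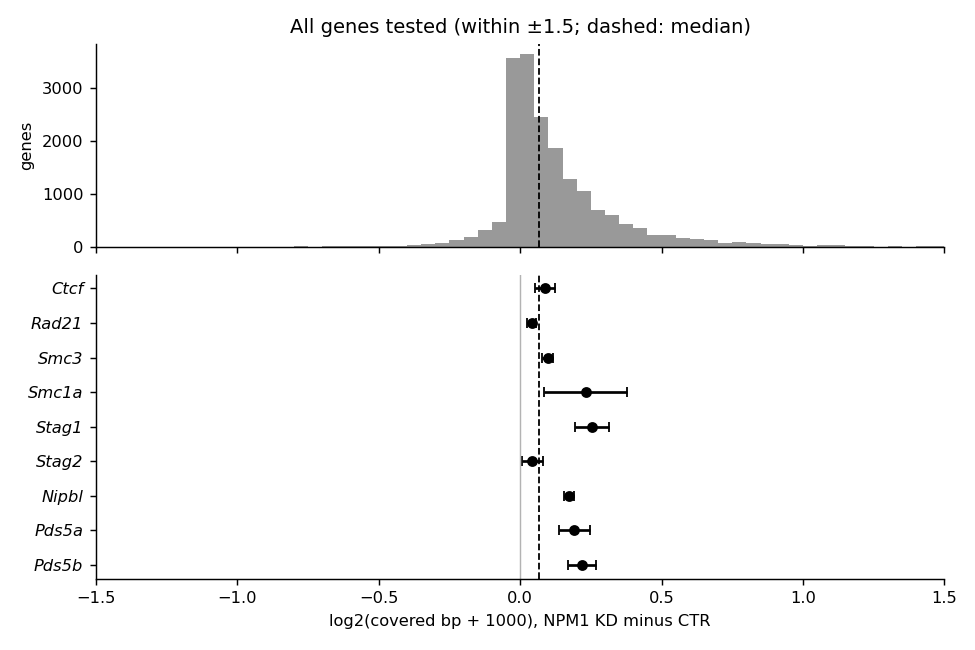
Difference between NPM1 KD and CTR in log2(covered bp + 1000) (x axis), as a histogram over all genes tested above and for the 9 marked genes below, with standard errors from limma. The dashed line is the median of all genes, 0.06, and the 9 genes lie between 0.04 and 0.25.

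Other genes of chromosome architecture were counted from 5 lists, with 39 genes in all. Broad peaks marked 35 of them in all 4 libraries. Both NPM1 KD libraries were above both CTR libraries in 15 and below in none, against 38.7% above over all genes and 59.4% over the long marked genes, and limma called none of them. The share over all genes counts only genes covered in at least 1 library, and 4 of the 39 had no peak in any. Set against the 35 marked genes, the 15 were near that share. Among 10 regulators of cohesin, 9 were marked and 6 were above, with a median log2 difference of 0.12. Over all genes tested 38.7% were above, with a median of 0.06. The largest difference of this list in percentage points was that of Sgo1, the shugoshin that protects centromeric cohesion, covered over 54.4% and 55.4% in CTR and over 61.1% and 67.7% in NPM1 KD. Hdac8, the deacetylase of SMC3, carried no peak in any library. Wapl, which releases cohesin, was covered over 61.2% and 61.7% in CTR and over 65.4% and 67.6% in NPM1 KD, and was named after its values were seen.

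The counts of the next lists also stand beside 38.7% above over all genes. A gene fully covered in every library cannot be above. Such genes occurred in each of these lists and among the regulators of cohesin. Of the 8 condensin genes, all were marked in all 4 libraries and 1 was above, Ncapd3, with 21.6% and 20.1% in CTR against 23.3% and 24.1% in NPM1 KD. The median log2 difference of condensin was -0.0037. Ncapd2 had the lowest difference of this list in percentage points, -1.14 with overlapping groups, and Ncapg2 the lowest mean share, 15.3%. Of the 9 genes of the SMC5/6 complex 5 were above, with the largest difference in Nsmce2, covered over 51.7% and 48.9% in CTR against 60.2% and 55.9% in NPM1 KD. Nsmce1 had the lowest difference there, -1.70 percentage points with overlapping groups, and Slf1 was covered over 0.129% to 0.567% of its window. Of 8 other architecture factors 2 were above, Adnp and Chd8. In Chd8, which encodes a chromatin remodeller that binds CTCF, the shares were 55.9% and 54.3% in CTR against 60.0% and 63.0% in NPM1 KD. No test of the difference between these lists and the 9 marked genes was made.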

How the data were processed

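H3K79me2 ChIP-seq peak lists of 4 N2a libraries, 2 per group, were analysed. The 10 genes, the other gene lists and the tests were chosen with earlier results of these data known. According to the study's methods and the submitters' processing notes, Bowtie2 2.3.4.1 placed the reads on mm10, poorly mapped reads were dropped, and MACS2 called peaks in each library by itself (2.2.6 in the notes). Which reads or input served as background in calling was not given in the sources used here. Each library had a broad and a narrow list. The authors deposited for each peak a fold, which is a ratio of pileup to background, at the summit in narrow and averaged in broad lists. They also deposited the -log10 p-value and -log10 q-value, a score that was not used here and, in the narrow lists, the offset of the summit.

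Peaks were intersected with GENCODE M21 windows (body plus 3 kb upstream) in Python 3.11.15 with numpy 2.4.6, pandas 2.3.3 and scipy 1.17.1, and plotted with matplotlib 3.10.9. Covered length in bp was compared by limma 3.58.1 (R 4.3.3) on log2 values with 1000 bp added, over genes covered in at least 1 library. Values per library were compared with exact two-sided permutation tests. All peaks of a narrow list shared 1 background, solved from fold and p, and fold times background plus 1 was whole within 0.02 for 97.6% to 99.7% of peaks. That gave summit pileups and their 95% Poisson intervals. The number of reads per library was not analysed here. The interval code, the limma fit and the solving of pileups were tested on simulated data. Of the cell type markers chosen, 2 are not reported here. Named genes were the 10, the genes overlapping them, per list the largest rise, the largest fall and the lowest covered share, and the 3 most like Ctcf among protein-coding genes within 10% of its window length. The alternatives were narrow lists, a -log10 q of at least 5, other windows, pseudocounts and filters, leaving out a library, and the replicate number as a block.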

Additional observations from a re-analysis of the deposited data

How the results depend on the processing

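The count of 5 genes called by limma depended on the setting. It was 0 with narrow lists, 0 with bases of no other gene, 0 with a mean covered length of at least 1000 bp, 22 with a pseudocount of 200 bp, 83 when only peaks reaching a -log10 q of 5 were kept, 81 with the gene body alone, and 0 to 0 when 1 library was left out. At an unadjusted p under 0.05 the settings with 0 calls had 1565 to 3058 genes higher in NPM1 KD. With the replicate number as a block limma called 0, and no member was called with or without it. The methods tie each replicate to a passage and batch without saying that numbers are shared between groups. Deviations of same-numbered libraries correlated at 0.195 across 18781 genes. No member was called in any of 12 settings, with adjusted p from 0.095 to 1.

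The covered share of the 9 marked members kept its direction in all settings tried, and with all 4 libraries 6 to 8 members had both NPM1 KD libraries above both CTR libraries. The 6 were those with peaks reaching a -log10 q of 5, where 30.2% of all genes were above. Without 1 library, 8 to 9 members had every remaining NPM1 KD library above every remaining CTR library, against 43.5% to 62.8% of all genes. The share of long marked genes was not counted in these settings. Without 1 library at a time, the percentile difference changed sign and ranged from -0.45 to 0.59 in Ctcf, -0.17 to 0.049 in Rad21, -0.50 to 0.043 in Smc3, -0.21 to 0.19 in Smc1a and -0.60 to 0.73 in Stag2. With broad folds it was 0.053 in Smc1a, of the other sign. NPM1 KD replicate 2 decided the sign in Ctcf and Smc3, CTR replicate 1 in Rad21, and either of them in Smc1a and Stag2. The domain difference changed sign with narrow lists in Rad21 (-510 bp), Smc3 (1181 bp) and Pds5a (-164.5 bp). Without joining, and also with peaks reaching a -log10 q of 5, the difference came to 7387 bp in Smc3 and -290.5 bp in Pds5a, and with gaps of up to 5 kb 4962 bp in Smc3. The cause was not tested. The RefSeq start sites and the leaving out of libraries in the count of members were added after seeing the data. CTR 2 had the lowest background pileup, 7.65, and how depth bears on weak peaks was not tested.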
